A study of Salmo salar with 45 samples.

Results

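The comparison described here is between Atlantic salmon (Salmo salar) fed the LP100 diet and those fed the control diet (CD), in RNA from the distal intestine. Its members are the 9 fish whose labels give the medium inclusion of HK L-137 and the 9 whose labels give the control diet, 18 of the 45 fish of the series. HK L-137 is a heat-killed strain of Lactiplantibacillus plantarum, a lactic acid bacterium of fermented food, and it was fed as the product Feed LP20, in which dextrin carries it. The LP100 diet held 100 mg of Feed LP20 per kg feed, and CD was made from the same mix of fish and plant ingredients with no additive. As analysed in the study, however, the LP100 feed held less crude lipid than the CD feed. Whether this difference in lipid had a part in the results was not tested. The remaining fish, 9 for each diet, received 20 mg (LP20) or 500 mg (LP500) per kg, or 2 g of β-glucan per kg (MG, a positive control). Each diet went to fish in 3 tanks for 61 days. All fish were of 1 commercial strain and were held in fresh water. The labels do not name the tank of a fish. Each fish was counted as a replicate, and p-values measure the spread between fish only. The intestine was opened, cleared of fat and digesta, and a section of it was kept for RNA.

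The wall of the fish intestine has an inner epithelium of absorptive enterocytes, mucus-making goblet cells and hormone-making cells, which rests on a basement membrane. Below it lie connective tissue with fibroblasts, vessels and immune cells, layers of smooth muscle with the enteric nerves, and an outer mesothelium. In the salmon distal intestine, enterocytes take up intact protein by endocytosis, through the receptors cubilin and megalin. Heat-killed lactobacilli carry cell wall parts such as lipoteichoic acid, which are known ligands of pattern recognition receptors on epithelial and immune cells. In whole tissue, fewer cells of a type and less RNA per cell cannot be told apart.

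The total count per fish was between 13752864 and 17435966 in LP100 (median 14634308) and between 11674716 and 22377591 in CD (median 13034085), so that a gene at 1 CPM (counts scaled to library size) had 13.8 to 17.4 counts in LP100 fish and 11.7 to 22.4 in CD fish. Cubilin (*cubn*, ENSSSAG00000073177, chromosome 19, 15261821 to 15316649, plus strand, assembly Ssal_v3.1, as for all positions given) was at 2689 to 3996 CPM in LP100 fish (median 3312), against 2789 to 4005 CPM in CD fish (median 3570.2). The megalin gene *lrp2b* was at 2126 to 3351 CPM in LP100 fish (median 2831), against 2263 to 3636 CPM in CD fish (median 2914). Both receptors were thus highly expressed in every fish, and their values overlapped between the diets (edgeR adjusted p = 0.875 and 0.776). Of the exocrine pancreas markers, 2 were matched and 0 passed the filter on low counts. A fish of each diet stood apart from the other 8. LP100 fish A061 had the lowest LP100 value in 1458 of the 1749 genes that were higher in LP100 (83.4%, against 14.7% of the genes not called), and CD fish A073 had the highest CD value in 1134 of them (64.8%, against 9.86%). Of the 505 genes that were lower in LP100, A061 had the highest LP100 value in 256 (50.7%, against 16.7% of the genes not called). CD fish A051 had the lowest CD value in 200 of these, for which the share among genes not called was not computed. The labels give no reason to set these fish aside, so every result includes them unless stated.

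Fish fed LP100 had 1749 differentially expressed genes (DEGs) that were up-regulated and 505 that were down-regulated against CD, of 29086 genes tested, at a Benjamini-Hochberg adjusted p under 0.05 in edgeR's quasi-likelihood test on the 18 fish. These are 6.01% and 1.74% of the genes tested. The median log2 fold change (LP100 over CD) was 1.11 among the up-regulated genes and -0.43 among the down-regulated ones, beside -0.01 over all genes tested. The up-regulated genes had medians of 4.91 CPM in LP100 and 2.31 CPM in CD, and 58.9% of them changed by more than 2-fold. The down-regulated genes had medians of 16.0 CPM in LP100 and 21.4 CPM in CD, and 9.7% of them changed by more than 2-fold. For 21 genes each of the 9 LP100 fish was above each of the 9 CD fish, and for 10 genes each was below, which is 0.0722% and 0.0344% of the genes tested. Without fish A061 and A073, an alternative chosen after the data were seen, 2550 genes were up-regulated and 1050 down-regulated. These fish were noticed because they run against the difference between the diets, so leaving them out widens it by construction, and these counts are no support for it.

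The fish of a diet fall into 3 runs of 3 consecutive label numbers, and the 15 runs of the series start at label numbers that lie multiples of 6 apart. Per the methods, 6 fish were sampled from each tank and 3 of these were sequenced, so the runs may be the tanks, which the labels do not state. With counts summed per run, which leaves 3 sums a diet, edgeR called 1155 genes up-regulated and 268 down-regulated, of 34639 tested. Only 923 and 200 of these were among the 1749 and 505 genes called with each fish counted singly. Of the 101 called genes that were named by the rule or singled out, 74 kept their call and 27 lost it. Those of the 27 described in the text are *cnr1*, *cyp2x9*, *col5a2a*, *pcolcea*, *p3h2*, *itga8*, *wnt2ba*, *bmp2*, *dlc*, *cdh17*, *pleca*, *pparg*, *cd63*, *syk*, *csf3r*, *tgm2*, *tfr1a*, *p4hb*, *ptges*, *myo6b*, *abhd11*, *nr1h4*, *erbb2*, *cdc42ep4b* and *lrpap1*. All of the 27 kept their direction. Called list members given in the text but outside the 101 were not followed singly in this or the other alternatives. Whether they keep their call is therefore not known. They are *lama2*, *loxa*, *p4ha2*, *myl9b*, *tpm1*, *tpm2*, *tcf21*, *foxl1*, *nbl1*, *tgfbi*, *flt1*, *ntn2*, *l1cama*, *epha5*, *il6ra* and *ptgs1*.

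**Figure D1:**
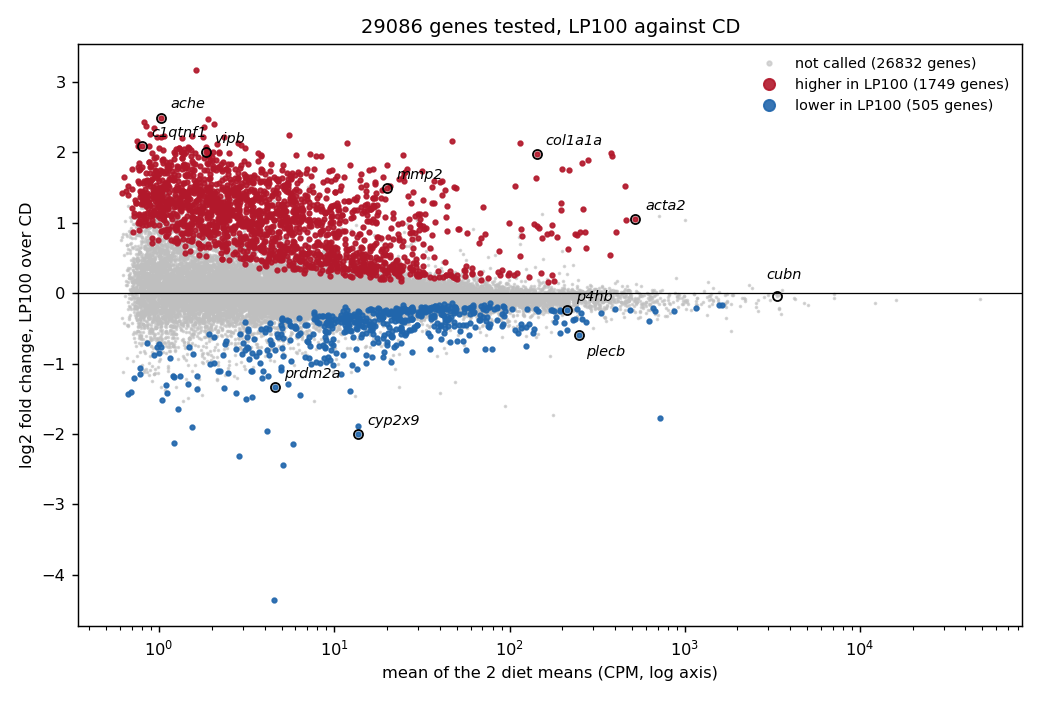
Log2 fold change (LP100 over CD) of the 29086 genes tested, plotted against the mean of the 2 diet means in CPM on a log axis, with up-regulated genes in red, down-regulated genes in blue and genes not called in grey. The 1749 up-regulated genes have a median log2 fold change of 1.11, and the 505 down-regulated genes one of -0.43.

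The 10 named genes with the smallest adjusted p among the up-regulated ones were *c1qtnf1*, *frem1a*, *gfi1b*, *crld2*, *osmr*, *tns2a*, *mab21l2*, *gpm6bb*, *unc5cb* and *hlx*. *c1qtnf1* (ENSSSAG00000066423, chromosome 1, 82141121 to 82178487, plus strand), which encodes a secreted protein of the C1q and tumour necrosis factor family, was at 0.903 to 1.62 CPM in LP100 fish (median 1.29), against 0.0671 to 0.572 CPM in CD fish (median 0.253). All 9 LP100 fish were above every CD fish, A061 included (log2 fold change 2.09, SE 0.30, edgeR adjusted p = 0.00271). *unc5cb* (ENSSSAG00000001322, chromosome 1, 132480139 to 132653273, plus strand) encodes a receptor for netrins, the guidance cues of growing axons and vessels, and was at 0.861 to 2.64 CPM in LP100 fish (median 1.45), against 0.161 to 0.826 CPM in CD fish (median 0.427). It too separated the diets without overlap (log2 fold change 1.74, SE 0.27, edgeR adjusted p = 0.00288). *osmr* (ENSSSAG00000088671, chromosome 26, 3808833 to 3844333, minus strand), whose mammalian counterpart is the receptor of oncostatin M, a cytokine of the interleukin-6 family, was at 5.61 to 11.6 CPM in LP100 fish (median 9.42), against 2.99 to 6.73 CPM in CD fish (median 3.49). Its values overlapped in A061 and another LP100 fish, A037, which lay below A073 (log2 fold change 1.18, SE 0.18, edgeR adjusted p = 0.00271). *hlx* (ENSSSAG00000039444, chromosome 15, 29555910 to 29559318, plus strand), a homeobox gene of the gut mesenchyme in the mouse embryo, was at 3.13 to 13.2 CPM in LP100 fish (median 11.3), against 2.28 to 6.04 CPM in CD fish (median 3.37). Apart from A061, at 3.13 CPM, the LP100 fish lay above every CD fish (log2 fold change 1.46, SE 0.23, edgeR adjusted p = 0.00288). *mab21l2*, a regulator of mesenchyme and eye development in the mouse, had a log2 fold change of 1.76, edgeR adjusted p = 0.0028, and its name is less sure, since the Ensembl and RefSeq spans share only 0.573 of their joint length. *crld2*, a secreted protein gene, had 1.75, edgeR adjusted p = 0.00271, and *gpm6bb*, for a membrane proteolipid of neural cells, 1.20, edgeR adjusted p = 0.00288. *gfi1b* had 2.08, edgeR adjusted p = 0.00271, but 60.4% of its exon length lies within exons on the other strand.

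The named up-regulated genes with the largest changes were *ache*, *ngfrb*, *cnr1*, *tspan18* and *c1qtnf1*. *ache* (ENSSSAG00000067397, chromosome 7, 28482360 to 28512872, plus strand), which encodes acetylcholinesterase, the enzyme that ends the signal of acetylcholine, was at 0 to 4.21 CPM in LP100 fish (median 1.41), against 0 to 0.762 CPM in CD fish (median 0.268). No count of it was found in LP100 fish A061 and CD fish A001, and 7 LP100 fish lay above every CD fish (log2 fold change 2.49, SE 0.55, edgeR adjusted p = 0.00912). *cnr1*, for a cannabinoid receptor of neurons, averaged 1.24 ± 0.877 CPM in LP100 fish and 0.265 ± 0.308 CPM in CD fish (SD, n = 9 each), with a log2 fold change of 2.16, edgeR adjusted p = 0.0263. *tspan18*, for a membrane tetraspanin, averaged 1.24 ± 0.523 CPM in LP100 fish and 0.28 ± 0.212 CPM in CD fish (SD, n = 9 each; log2 fold change 2.09, edgeR adjusted p = 0.00852). For both, 8 LP100 fish lay above the CD mean and no count was found in A061.

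Genes of the extracellular matrix were up-regulated across its classes. Counts of list members, here and below, stand beside 6.01% of all genes tested that were up-regulated and 1.74% that were down-regulated. In the list of fibrillar collagens, the rope-like proteins that give connective tissue its strength, 2 of 4 tested members (50%) were up-regulated and 0 down-regulated (median log2 fold change 1.32). *col1a1a* (ENSSSAG00000006686, chromosome 6, 44754656 to 44777524, plus strand), for the main chain of type I collagen, was at 27.7 to 312 CPM in LP100 fish (median 267), against 24.0 to 181 CPM in CD fish (median 41.4). Of the LP100 fish, A061 was at 27.7 CPM, within the range of CD, and the CD fish A073 was at 181 CPM, within that of the other LP100 fish (log2 fold change 1.98, SE 0.40, edgeR adjusted p = 0.00563). *col5a2a*, for a chain of type V collagen, rose as well (log2 fold change 1.42, edgeR adjusted p = 0.0171), and 21.6% of its exon length lies within exons on the other strand. *col11a1a* had a log2 fold change of 1.23, edgeR adjusted p = 0.064, which did not pass the test.

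Of the network-forming and other collagens, 5 of 7 were up-regulated and 0 down-regulated (median 1.51). *col4a1* (ENSSSAG00000065415, chromosome 25, 35550694 to 35719214, minus strand) encodes a chain of type IV collagen, the sheet of basement membranes, and was at 5.08 to 33.2 CPM in LP100 fish (median 21.4), against 3.26 to 16.6 CPM in CD fish (median 5.43). All LP100 fish but A061, at 5.08 CPM, lay above every CD fish (log2 fold change 1.61, SE 0.30, edgeR adjusted p = 0.00495). *col6a1* (ENSSSAG00000119824, chromosome 3, 2159951 to 2213353, minus strand), for a chain of the microfibrils around cells, was at 7.89 to 59.5 CPM in LP100 fish (median 40.2), against 5.24 to 23.3 CPM in CD fish (median 8.81). Here again 8 LP100 fish lay above every CD fish and A061 within them (log2 fold change 1.71, SE 0.34, edgeR adjusted p = 0.00536). Its neighbour on chromosome 3, *col6a2*, had a log2 fold change of 1.51, edgeR adjusted p = 0.00778, and *col13a1*, for a collagen that spans the cell membrane, 1.59, edgeR adjusted p = 0.00413.

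**Figure D2:**
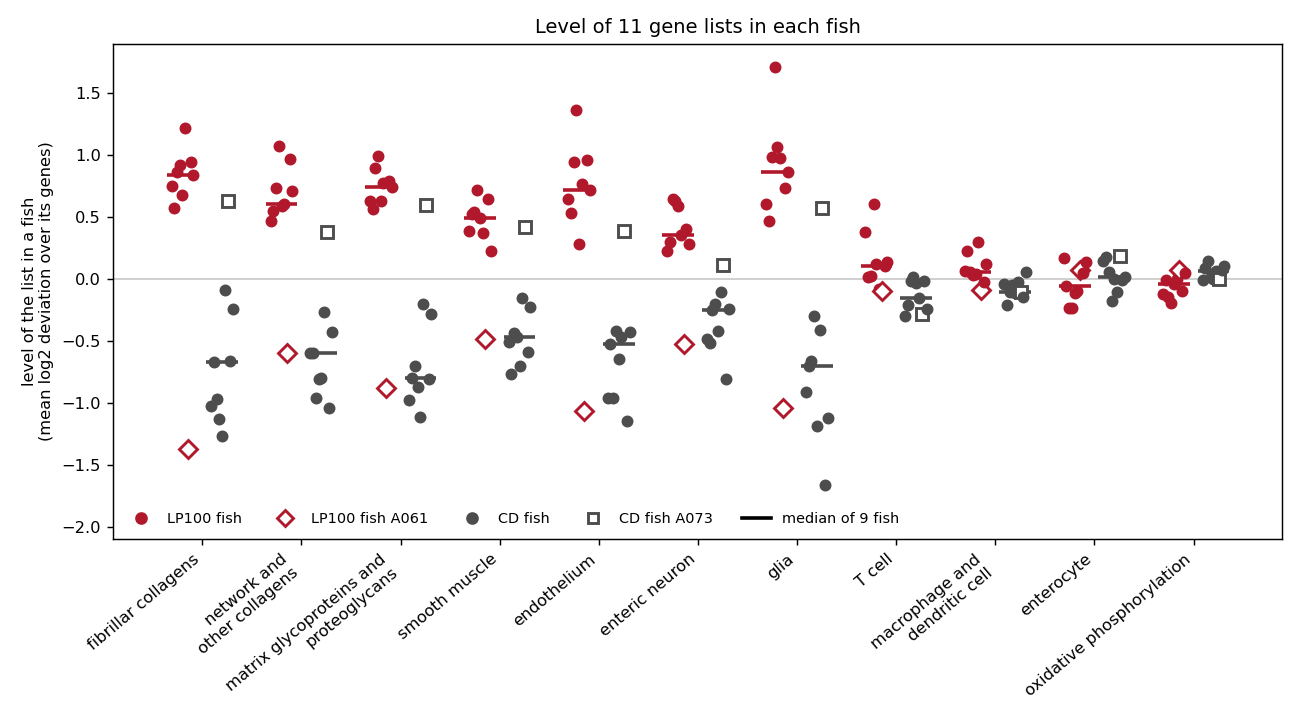
Level of 11 gene lists in each of the 18 fish, as the average deviation of its tested members from their 18-fish means (vertical axis, log2 CPM), with LP100 fish in red, CD fish in grey, and the median of 9 fish as a bar. In the wall lists on the left, LP100 fish A061 (open diamond) lies among or below the CD fish and CD fish A073 (open square) is the highest CD fish, while the levels of the T cell, macrophage, enterocyte and oxidative phosphorylation lists on the right span a narrower range.

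Among matrix glycoproteins and proteoglycans, which link collagens with cells, 15 of 23 members were up-regulated and 0 down-regulated (median 1.36). The leading member was *frem1a* (ENSSSAG00000065397, chromosome 18, 59936693 to 59966372, plus strand), for a basement membrane protein of the Fraser complex, at 2.11 to 7.62 CPM in LP100 fish (median 5.56), against 0.773 to 3.81 CPM in CD fish (median 1.21). All LP100 fish but A061 were above every CD fish (log2 fold change 1.88, SE 0.28, edgeR adjusted p = 0.00271). *lum* (ENSSSAG00000020979, chromosome 17, 66719175 to 66722865, minus strand), for lumican, a small proteoglycan that spaces collagen fibrils, was at 8.44 to 75.6 CPM in LP100 fish (median 56.8), against 6.35 to 35.3 CPM in CD fish (median 11.2). A061 was at 8.44 CPM and A073 at 35.3 CPM, and 6 LP100 fish lay above every CD fish (log2 fold change 1.74, SE 0.35, edgeR adjusted p = 0.00553). The fibronectin gene *fn1a* had a log2 fold change of 1.77, edgeR adjusted p = 0.00915, and hemicentin *hmcn2* 2.07, edgeR adjusted p = 0.00897. The laminins differed among themselves. *lamb2*, for a beta chain, rose (log2 fold change 1.63, edgeR adjusted p = 0.00485), with 0.518 of the joint length shared, and so did *lama2*, for the alpha chain of muscle and vessel basement membranes (1.36, edgeR adjusted p = 0.0256). The epithelial alpha chains did not pass the test, with *lama3* at 359 ± 52.7 CPM in LP100 fish and 421 ± 61.7 CPM in CD fish (SD, n = 9 each; edgeR adjusted p = 0.154) and *lama5* at a log2 fold change of 0.02, edgeR adjusted p = 0.97.

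Of the collagen processing list, 7 of 17 members were up-regulated, 0 were down-regulated and 10 were not called (median 0.53). They included the cross-linking enzymes *loxl3b* (log2 fold change 1.43, edgeR adjusted p = 0.00519) and *loxa* (1.05, edgeR adjusted p = 0.0201), the procollagen protease enhancer *pcolcea* (1.52, edgeR adjusted p = 0.00741) and the prolyl hydroxylases *p3h2* (1.25, edgeR adjusted p = 0.0174) and *p4ha2* (1.34, edgeR adjusted p = 0.0182). The gene *p4hb*, which encodes the disulfide isomerase subunit of prolyl 4-hydroxylase and serves all secretory cells, fell, at 195 ± 15.7 CPM in LP100 fish and 229 ± 19.9 CPM in CD fish (SD, n = 9 each; log2 fold change -0.24, SE 0.06, edgeR adjusted p = 0.0207). It is outside the list and was singled out after its values were seen. Of matrix proteases and their inhibitors, 10 of 18 were up-regulated, 0 were down-regulated and 8 were not called (median 0.73). *mmp2* (ENSSSAG00000047363, chromosome 11, 30159248 to 30180897, plus strand), for a gelatinase of connective tissue, was at 5.94 to 42.5 CPM in LP100 fish (median 28.9), against 6.91 to 22.6 CPM in CD fish (median 8.52), and 8 LP100 fish lay above every CD fish while A061 lay below every CD fish (log2 fold change 1.5, SE 0.28, edgeR adjusted p = 0.00502). *mmp14a*, for the membrane protease that activates it in mammals, had a log2 fold change of 1.82, edgeR adjusted p = 0.00502, and the inhibitor *timp2* 1.0, edgeR adjusted p = 0.00614. The proteases *mmp9* and *mmp13* had log2 fold changes of 0.62, edgeR adjusted p = 0.266 and 0.70, edgeR adjusted p = 0.154, and did not pass the test.

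The level of a list in a fish is given here as the mean over its tested members of log2 CPM less the 18-fish mean of that gene. For the fibrillar collagens this level was -1.37 to 1.22 in LP100 fish (median 0.84) and -1.27 to 0.63 in CD fish (median -0.67). Of the LP100 fish A061 had the lowest value, and without it the lowest was 0.57. Of the CD fish A073 had the highest, and without it the highest was -0.09. The matrix glycoprotein list gave -0.88 to 0.99 in LP100 fish (median 0.74) and -1.12 to 0.60 in CD fish (median -0.80).

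Of the genes for integrins and focal adhesions, by which cells hold the matrix, 8 of 23 were up-regulated and 0 down-regulated (median 0.37). The leading members were the tensins *tns2a* (log2 fold change 1.46, edgeR adjusted p = 0.00271) and *tns1b* (1.36, edgeR adjusted p = 0.00462) and the integrin alpha chain *itga8*. *itga8* (ENSSSAG00000042854, chromosome 2, 32011836 to 32077861, plus strand), a receptor of mesenchymal and smooth muscle cells, was at 0.782 to 3.52 CPM in LP100 fish (median 2.38), against 0.0859 to 1.97 CPM in CD fish (median 0.402), and 8 LP100 fish were above every CD fish (log2 fold change 2.06, SE 0.43, edgeR adjusted p = 0.00656). With counts summed per run its edgeR adjusted p was 0.082. *tln1*, for talin, a linker used by most cell types, was at 164 ± 11.8 CPM in LP100 fish and 148 ± 12.1 CPM in CD fish (SD, n = 9 each), a log2 fold change of 0.16, edgeR adjusted p = 0.113.

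Of the smooth muscle contraction list, 9 of 23 members were up-regulated and 0 down-regulated (median 0.39). *acta2* (ENSSSAG00000044179, chromosome 19, 49378761 to 49393630, minus strand), for the actin of smooth muscle, was at 259 to 986 CPM in LP100 fish (median 675), against 206 to 659 CPM in CD fish (median 291). A061, at 259 CPM, lay within the range of CD, and A073, at 659 CPM, within that of LP100 (log2 fold change 1.06, SE 0.22, edgeR adjusted p = 0.00705). Its name is uncertain as well, with 0.532 of the joint length shared. The actin-associated adaptor *pdlim3a* (log2 fold change 1.02, edgeR adjusted p = 0.00495), smoothelin *smtna* (1.02, edgeR adjusted p = 0.0111), the myosin light chain *myl9b* (0.81, edgeR adjusted p = 0.00799) and the tropomyosins *tpm1* (0.78, edgeR adjusted p = 0.00811) and *tpm2* (0.55, edgeR adjusted p = 0.0312) rose as well. The other smoothelin copy, *smtnb*, was at 76.5 ± 6.54 CPM in LP100 fish and 68.2 ± 8.68 CPM in CD fish (SD, n = 9 each; log2 fold change 0.17, edgeR adjusted p = 0.199). The cell adhesion gene *mcamb*, shared with the vessel wall, had 1.12, edgeR adjusted p = 0.00656, with 41.3% of its exon length within exons on the other strand. The 1 marker of skeletal muscle tested, the calcium pump gene *atp2a1*, was at 2.30 ± 0.555 CPM in LP100 fish and 1.88 ± 0.599 CPM in CD fish (SD, n = 9 each; edgeR adjusted p = 0.437).

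**Figure D3:**
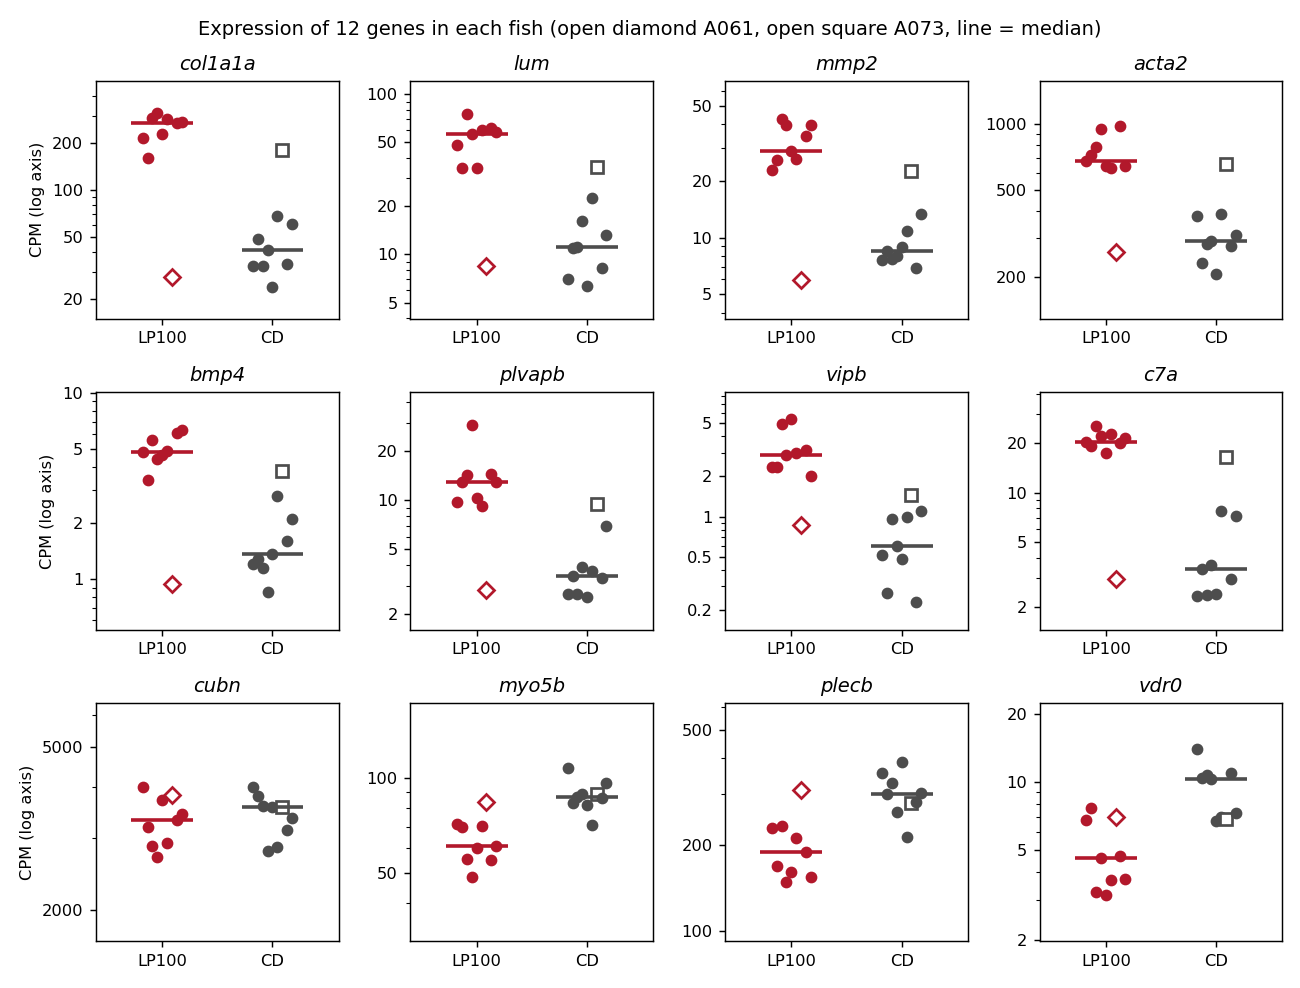
CPM of 12 genes in each fish (log axes, a scale for each gene), with the 9 LP100 fish in red on the left and the 9 CD fish in grey on the right of each panel, and medians as bars. LP100 fish A061 (open diamond) lies at or below CD levels for *col1a1a*, *lum*, *mmp2*, *acta2*, *bmp4*, *plvapb* and *c7a*, CD fish A073 (open square) is the highest CD fish for these, and *cubn* overlaps between the diets.

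Regulators of the gut mesenchyme rose in part. Of the mesenchyme regulators and receptors, 5 of 15 were up-regulated, *mab21l2*, *meox2a* (log2 fold change 1.62, edgeR adjusted p = 0.00697), *zeb2a* (1.06, edgeR adjusted p = 0.00948), *tcf21* (1.31, edgeR adjusted p = 0.0162) and *foxl1* (0.91, edgeR adjusted p = 0.0299), and 0 were down-regulated (median 0.13). *foxl1* marks the fibroblasts under the epithelium in the mouse gut. The posterior hox genes of the list, such as *hoxd13a* (-0.14, edgeR adjusted p = 0.863), did not pass the test. In the hedgehog pathway the epithelium makes the ligands, and the mesenchyme responds through the receptor patched and the factor Gli1. Of its list, 2 of 6 members were up-regulated (33.3%, beside 6.01% of all genes tested) and 0 down-regulated. *ptch1* (ENSSSAG00000061743, chromosome 24, 8160491 to 8244515, minus strand) was at 0.938 to 3.99 CPM in LP100 fish (median 2.45), against 0.286 to 2.60 CPM in CD fish (median 0.659). A073 was the highest CD fish, and 4 LP100 fish lay above it (log2 fold change 1.62, SE 0.35, edgeR adjusted p = 0.00771). *gli1* had a log2 fold change of 1.57, edgeR adjusted p = 0.043. The ligand *shha* was at 54.7 ± 9.10 CPM in LP100 fish and 63.9 ± 11.6 CPM in CD fish (SD, n = 9 each; edgeR adjusted p = 0.24) and *dhh* at 29.1 ± 5.67 CPM in LP100 fish and 30.6 ± 2.56 CPM in CD fish (SD, n = 9 each; edgeR adjusted p = 0.768).

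Of the TGF-beta and BMP list, 5 of 19 were up-regulated (26.3%, beside 6.01% of all genes tested) and 0 down-regulated (median 0.07). The ligand *bmp4* (ENSSSAG00000051847, chromosome 1, 32667223 to 32681912, minus strand), a signal of the mesenchyme that restrains growth of the epithelium in mammals, was at 0.938 to 6.29 CPM in LP100 fish (median 4.81), against 0.854 to 3.81 CPM in CD fish (median 1.37). Of the LP100 fish, 7 lay above every CD fish, and A061 was at 0.938 CPM (log2 fold change 1.34, SE 0.30, edgeR adjusted p = 0.00958). *bmp2* (log2 fold change 1.02, edgeR adjusted p = 0.0195), the vessel receptor *acvrl1* (0.84, edgeR adjusted p = 0.00519), the BMP antagonist *nbl1* (0.95, edgeR adjusted p = 0.0222) and the matrix protein *tgfbi* (0.99, edgeR adjusted p = 0.0332) rose too. The intracellular Smad genes did not pass the test, with log2 fold changes from -0.05 (*smad5*) to 0.14 (*smad9*). *tgfb1a* (ENSSSAG00000052708, chromosome 9, 156082309 to 156133204, minus strand), for the ligand TGF-beta 1, was at 5.39 to 9.39 CPM in LP100 fish (median 7.63), against 4.71 to 7.12 CPM in CD fish (median 5.85). Of the LP100 fish, 5 lay above every CD fish, and the difference missed the threshold (log2 fold change 0.37, SE 0.12, edgeR adjusted p = 0.0707). Of its exon length, 17.1% lies within exons on the other strand. In the Wnt list, 2 of 16 members (12.5%) were up-regulated, *dkk3b* (1.30, edgeR adjusted p = 0.00738) and the ligand *wnt2ba* (1.15, edgeR adjusted p = 0.0295). In the Notch list 1 of 9 (11.1%) was up-regulated, the ligand *dlc* (0.40, edgeR adjusted p = 0.0408). Beside 6.01% of all genes tested and with so few members, the Wnt and Notch counts are given as a description only. None of the members of either list was down-regulated.

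Vessel markers rose in most of the list. Of the endothelium markers, 7 of 9 were up-regulated and 0 down-regulated (median 1.25), and the summed level over the list was 9.69 to 64.3 CPM in LP100 fish and 10.6 to 31.3 CPM in CD fish. *plvapb* (ENSSSAG00000040305, chromosome 10, 50454586 to 50459337, minus strand), for a protein of the diaphragms in capillary walls, was at 2.81 to 28.9 CPM in LP100 fish (median 12.9), against 2.57 to 9.53 CPM in CD fish (median 3.42). A037 had the highest value and 7 LP100 fish lay above every CD fish (log2 fold change 1.58, SE 0.33, edgeR adjusted p = 0.0068). *flt1*, for a receptor of vascular growth factor, had a log2 fold change of 1.93, edgeR adjusted p = 0.00814, *esama* 1.59, edgeR adjusted p = 0.00502, *pecam1a* 1.65, edgeR adjusted p = 0.0131 and the scavenger receptor *stab2* 1.25, edgeR adjusted p = 0.00794. *vwf*, for the clotting factor that endothelium releases, had 1.13, edgeR adjusted p = 0.0684 and did not pass the test.

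Nerve markers differed among themselves. Of the enteric neuron list, 3 of 9 were up-regulated (33.3%, beside 6.01% of all genes tested) and 0 down-regulated (median 0.05). *vipb* (ENSSSAG00000076665, chromosome 2, 49074663 to 49079214, minus strand), for vasoactive intestinal peptide, a relaxing transmitter of enteric neurons, was at 0.860 to 5.33 CPM in LP100 fish (median 2.91), against 0.228 to 1.46 CPM in CD fish (median 0.598). All LP100 fish but A061 were above every CD fish (log2 fold change 2.01, SE 0.34, edgeR adjusted p = 0.00391). *prph*, for a neuronal filament, rose (log2 fold change 1.82, edgeR adjusted p = 0.00745), as did *stmn2b*, for a protein of growing axons (1.02, edgeR adjusted p = 0.00948), of whose exon length 40.1% lies within exons on the other strand. The neuronal RNA-binding gene *elavl3*, at 36.2 ± 3.68 CPM in LP100 fish and 35.1 ± 4.43 CPM in CD fish (SD, n = 9 each), had 0.05, edgeR adjusted p = 0.799. *ret* and *gfra1a*, for the receptor of glial cell line-derived neurotrophic factor, had log2 fold changes of -0.01, edgeR adjusted p = 0.986 and -0.03, edgeR adjusted p = 0.916. Of the glia markers, 2 of 3 (66.7%) were up-regulated, *ngfrb* (2.22, edgeR adjusted p = 0.00621) and *mpz* (1.89, edgeR adjusted p = 0.00554). In the list of axon guidance and cell adhesion, 5 of 22 members (22.7%) were up-regulated, among them *ntn2* (1.74, edgeR adjusted p = 0.0241) and *l1cama* (1.47, edgeR adjusted p = 0.00778). The ephrin receptor *epha5* was down-regulated (-0.73, edgeR adjusted p = 0.0227), which is 4.55% of the list beside 1.74% of all genes tested. Of the interstitial cells of Cajal, the pacemakers of the gut, neither *kita* (-0.28, edgeR adjusted p = 0.17) nor *etv1* (0.86, edgeR adjusted p = 0.167) passed the test. Of the mesothelium list, 2 of 4 (50%) rose, *aldh1a2*, for an enzyme of retinoic acid synthesis (1.20, edgeR adjusted p = 0.00926), and *krt18b* (1.11, edgeR adjusted p = 0.0131), whereas *mslna* had -0.03, edgeR adjusted p = 0.829.

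The levels of these cell type lists had their extremes in the same fish. The smooth muscle level was -0.48 to 0.72 in LP100 fish (median 0.49) and -0.77 to 0.42 in CD fish (median -0.47), that of endothelium -1.07 to 1.37 in LP100 fish (median 0.72) and -1.15 to 0.39 in CD fish (median -0.52) and that of enteric neurons -0.52 to 0.65 in LP100 fish (median 0.36) and -0.81 to 0.11 in CD fish (median -0.25). In each of these lists A061 was the lowest LP100 fish and A073 the highest CD fish. The enterocyte level, from *cubn*, *lrp2b* and *cdx1b*, was -0.23 to 0.17 in LP100 fish (median -0.05) and -0.17 to 0.19 in CD fish (median 0.02), and A073 was its highest CD fish too. The share of muscle, vessel and connective tissue in a sample was not measured apart from these markers, so their part in the DEGs was not tested in that way. With the smooth muscle level minus the enterocyte level of each fish as a covariate, edgeR called 0 genes. Of the 29086 genes tested, 1843 were at an unadjusted p under 0.05, where about 1 in 20 would be with no difference. The median log2 fold change with the covariate was 0.31 for the 1749 up-regulated genes and -0.24 for the 505 down-regulated ones. This covariate is taken from the same libraries and differs between the diets. Its smooth muscle part rests on only 3 genes, *acta2*, whose name is uncertain, *smtna* and *smtnb*.

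**Figure D4:**
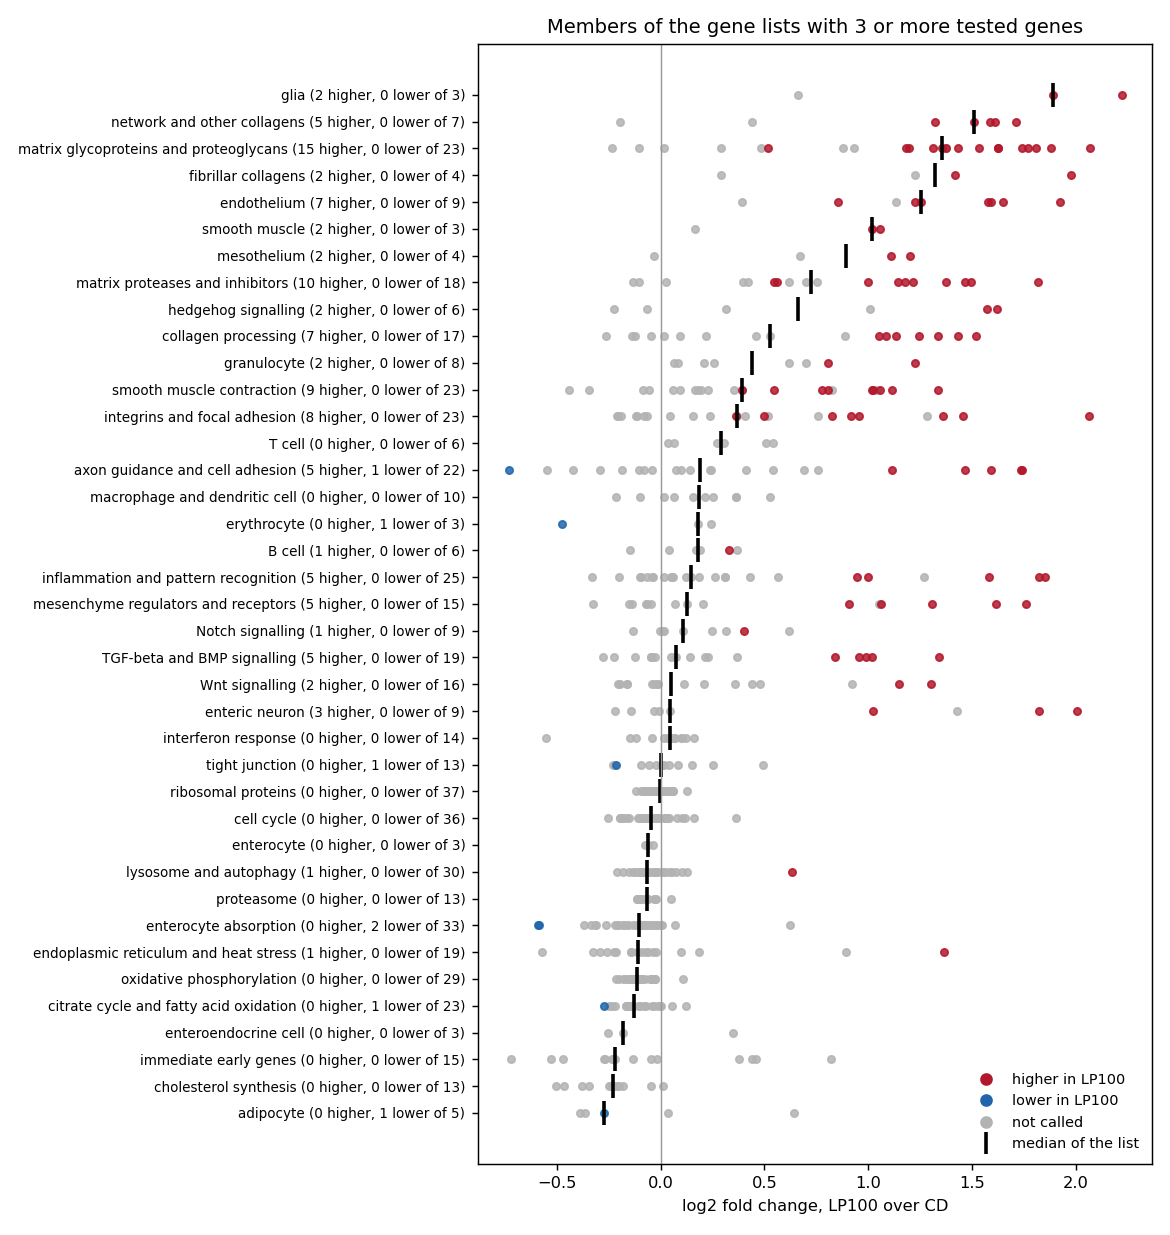
Log2 fold change (LP100 over CD) of each tested member of the gene lists with 3 or more tested genes, one list to a line, with up-regulated members in red, down-regulated members in blue, members not called in grey and the median of a list as a black mark. Network collagens, matrix glycoproteins, endothelium and glia have medians from 1.25 to 1.89, and ribosomal proteins, cell cycle and oxidative phosphorylation have medians from -0.12 to -0.0026.

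Genes of inflammation and pattern recognition were up-regulated for 5 of 25 members (20%, beside 6.01% of all genes tested), with 0 down-regulated (median 0.14). *c7a* (ENSSSAG00000059317, chromosome 24, 5471750 to 5489747, minus strand), for component C7 of the membrane attack complex of complement, was at 2.97 to 25.7 CPM in LP100 fish (median 20.3), against 2.32 to 16.6 CPM in CD fish (median 3.42). A061 was at 2.97 CPM and A073 at 16.6 CPM, and the other 8 LP100 fish lay above every CD fish (log2 fold change 1.82, SE 0.39, edgeR adjusted p = 0.00728). Its copy *c7b* had a log2 fold change of 1.58, edgeR adjusted p = 0.0107, the chemokine receptor *cxcr2* 1.85, edgeR adjusted p = 0.0171, the interleukin-6 receptor chain *il6ra* 0.95, edgeR adjusted p = 0.0266 and the cyclooxygenase *ptgs1* 1.0, edgeR adjusted p = 0.0337. Toll-like receptors, which sense bacterial parts, and their adaptor did not pass the test where named here. *tlr1*, *tlr2*, *tlr9* and *tlr21* had log2 fold changes of 0.18, 0.05, 0.31 and -0.10, and *myd88*, the adaptor of most Toll-like receptors, had -0.04, edgeR adjusted p = 0.859.

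Of the immune cell lists, 0 of 6 T cell markers, 1 of 6 B cell markers, 0 of 10 macrophage and dendritic cell markers and 2 of 8 granulocyte markers were up-regulated, and 0 of each were down-regulated. Of all genes tested 6.01% were up-regulated, and with so few markers these counts are given as a description only. *cd3e*, for a chain of the T cell receptor complex, was at 26.5 ± 4.48 CPM in LP100 fish and 21.9 ± 2.69 CPM in CD fish (SD, n = 9 each; log2 fold change 0.27, edgeR adjusted p = 0.0859). *cd79b*, of the B cell receptor complex, had 0.37, edgeR adjusted p = 0.187, and the kinase *syk*, which B cells and other blood cells use, rose (0.33, edgeR adjusted p = 0.0415). *cd68*, of macrophage lysosomes, was at 215 ± 12.6 CPM in LP100 fish and 213 ± 16.4 CPM in CD fish (SD, n = 9 each; log2 fold change 0.01, edgeR adjusted p = 0.917). The members of the granulocyte list that rose were the growth factor receptor *csf3r* (0.80, edgeR adjusted p = 0.0228) and the transglutaminase *tgm2* (1.23, edgeR adjusted p = 0.0488). *tgm2* is not specific to granulocytes, since other cell types of the gut wall make it too. Lysozyme *lyz* had 0.08, edgeR adjusted p = 0.562. The granulocyte level was lowest among LP100 fish in A061, at -0.62, and highest among CD fish in A073, at 0.40. The median log2 fold change was 0.29 for the T cell list, with 6 of 6 members higher in mean, 0.18 for B cells (5 of 6), 0.18 for macrophages and dendritic cells (8 of 10) and 0.44 for granulocytes (8 of 8), beside -0.01 over all genes tested. The T cell level was -0.10 to 0.61 in LP100 fish (median 0.11) and -0.30 to 0.01 in CD fish (median -0.15), and 7 LP100 fish lay above every CD fish. At an unadjusted p under 0.05, 3 T cell and 4 macrophage and dendritic cell markers were higher, and DESeq2 called 0 in both lists. Those unadjusted counts stand beside 6112 of all 29086 genes tested, both directions together, and are a description only. Of the interferon response, edgeR and DESeq2 called 0 of 14 members in either direction, and 1 was lower at an unadjusted p under 0.05 (median 0.04).

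Annexin A1 and some other immune markers were also measured as proteins in the study. The gene *anxa1* (ENSSSAG00000071582, chromosome 20, 15977484 to 15985078, minus strand), for a phospholipid-binding protein that restrains inflammation, was at 32.3 to 51.9 CPM in LP100 fish (median 43.5), against 28.3 to 46.4 CPM in CD fish (median 36.2). Only A061 of the LP100 fish lay below the CD mean, and the difference did not pass the test (log2 fold change 0.26, SE 0.10, edgeR adjusted p = 0.124). Of the other markers, the symbols *il1b*, *cdh1* and *ighm* were sought, but no tested gene carried them. Genes of these markers were therefore not analysed here.

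The 10 named genes with the smallest adjusted p among the down-regulated ones were *ubp1*, *inpp5f*, *rffl*, *ap1g1*, *dock8*, *rsf1b.1*, *myo5b*, *p5cs*, *ciz1b* and *vdr0*. *ubp1* (ENSSSAG00000110783, chromosome 27, 23847328 to 23866226, minus strand), for a transcription factor of the grainyhead family, was at 20.9 to 29.2 CPM in LP100 fish (median 22.7), against 26.6 to 39.9 CPM in CD fish (median 34.4). Every LP100 fish lay below the CD mean and 7 below every CD fish (log2 fold change -0.48, SE 0.09, edgeR adjusted p = 0.00442). *myo5b* (ENSSSAG00000009979, chromosome 1, 131840382 to 131922042, minus strand) encodes a myosin that carries recycling vesicles to the apical membrane of enterocytes, and its loss in humans causes microvillus inclusion disease. It was at 48.5 to 84.0 CPM in LP100 fish (median 60.9), against 70.9 to 108 CPM in CD fish (median 86.7), with A061 the highest LP100 fish at 84.0 CPM (log2 fold change -0.46, SE 0.09, edgeR adjusted p = 0.00648). *vdr0* (ENSSSAG00000073438, chromosome 15, 83155011 to 83236361, minus strand), annotated as a vitamin D receptor, was at 3.15 to 7.71 CPM in LP100 fish (median 4.60), against 6.75 to 14 CPM in CD fish (median 10.3), and 6 LP100 fish lay below every CD fish (log2 fold change -0.92, SE 0.20, edgeR adjusted p = 0.00733). *inpp5f*, for an inositol phosphatase of endosomes, had a log2 fold change of -0.86, edgeR adjusted p = 0.00462, and *ap1g1*, for a subunit of the adaptor that loads clathrin vesicles, -0.43, edgeR adjusted p = 0.00503, with 0.534 of the joint length shared. *p5cs*, for the enzyme that starts proline synthesis from glutamate, had -0.42, edgeR adjusted p = 0.00697, and *ciz1b*, for a nuclear protein of DNA replication, -0.60, edgeR adjusted p = 0.00723. For *rffl* (-0.52), *rsf1b.1* (-0.62) and *dock8* (-0.44), 43.1%, 32.7% and 16.8% of the exon length lies within exons on the other strand.

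The named down-regulated genes with the largest changes were *cyp2x9*, *prdm2a*, *hoxc9*, *lmln* and *snx17*. *cyp2x9* (ENSSSAG00000102296, chromosome 16, 13254716 to 13262239, plus strand), for a cytochrome P450 of a fish family, was at 1.78 to 24.3 CPM in LP100 fish (median 2.51), against 3.42 to 67.5 CPM in CD fish (median 16.1). Of the LP100 fish A062 stood apart at 24.3 CPM, and CD fish A003 had the highest CD value (log2 fold change -2.0, SE 0.58, edgeR adjusted p = 0.0395). With counts summed per run its edgeR adjusted p was 0.0581. *prdm2a* (ENSSSAG00000068667, chromosome 15, 74358030 to 74376977, minus strand), for a histone methyltransferase, was at 1.01 to 6.80 CPM in LP100 fish (median 1.66), against 3.05 to 8.46 CPM in CD fish (median 7.28), with A061 the highest LP100 fish (log2 fold change -1.33, SE 0.33, edgeR adjusted p = 0.0168). *snx17* (ENSSSAG00000051601, chromosome 6, 91034135 to 91120257, plus strand), for a sorting nexin that returns receptors of the LDL receptor family to the cell surface, was at 3.24 to 17.5 CPM in LP100 fish (median 6.07), against 13.4 to 21.3 CPM in CD fish (median 15.9). LP100 fish A031 and A061 lay within the range of CD and the other 7 below every CD fish (log2 fold change -1.02, SE 0.27, edgeR adjusted p = 0.0228). *hoxc9* and *lmln* had log2 fold changes of -1.18, edgeR adjusted p = 0.0168 and -1.10, edgeR adjusted p = 0.0151.

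In the list of enterocyte absorption, 0 of 33 members were up-regulated and 2 were down-regulated, which is 6.06% of the list beside 1.74% of all genes tested (median -0.10), and 4 of the 33 had a higher mean in LP100. At an unadjusted p under 0.05 there were 0 higher and 8 lower members, beside 6112 of all 29086 genes tested, both directions together. DESeq2 called 0 higher and 4 lower members. The down-regulated members were both copies of plectin, the cytolinker that ties keratin filaments to junctions. Plectin is made by many cell types and has no direct part in absorption, and edgeR did not call the other 31 members. *plecb* (ENSSSAG00000038733, chromosome 2, 43734109 to 43930015, minus strand) was at 148 to 309 CPM in LP100 fish (median 189), against 213 to 387 CPM in CD fish (median 299.7). A061 was the only LP100 fish above the CD mean, and 6 LP100 fish lay below every CD fish (log2 fold change -0.59, SE 0.13, edgeR adjusted p = 0.0103). *pleca* had a log2 fold change of -0.59, edgeR adjusted p = 0.0309. The brush border linker *ezra* had -0.31, edgeR adjusted p = 0.0554, with 26.9% of its exon length within exons on the other strand, and *slc15a1*, the peptide transporter, 0.62, edgeR adjusted p = 0.404. Of the tight junction list, 0 of 13 were up-regulated, 1 (7.69% of the list) was down-regulated and 12 were not called. The down-regulated member was *cdh17*, an intestinal cadherin of cell adhesion that is not itself a tight junction protein. It was at 1079 ± 101 CPM in LP100 fish and 1251 ± 93.7 CPM in CD fish (SD, n = 9 each; log2 fold change -0.21, SE 0.06, edgeR adjusted p = 0.0428). *tjp1b* and *cldn3c* had log2 fold changes of 0.49, edgeR adjusted p = 0.134 and -0.22, edgeR adjusted p = 0.406. *agr2*, of goblet cells, was at 306 ± 74.4 CPM in LP100 fish and 401 ± 52.8 CPM in CD fish (SD, n = 9 each; log2 fold change -0.39, edgeR adjusted p = 0.0509), just outside the threshold. Of 3 enteroendocrine markers, 0 were called in edgeR or DESeq2 and 0 had an unadjusted p under 0.05, with *pyy* at a log2 fold change of -0.25, edgeR adjusted p = 0.631.

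Of the 29 oxidative phosphorylation genes, 1 had a higher mean in LP100 and edgeR called 0 in either direction (median -0.12, beside -0.01 over all genes tested). At an unadjusted p under 0.05, 10 members were lower and 0 higher, and DESeq2 called 1 lower and 0 higher. Over all 29086 genes tested in edgeR, 6112 were at an unadjusted p under 0.05, both directions together. *cox4i1*, for a subunit of cytochrome c oxidase, was at 187 ± 9.31 CPM in LP100 fish and 207 ± 15.8 CPM in CD fish (SD, n = 9 each; log2 fold change -0.14, SE 0.05, edgeR adjusted p = 0.105), with 29.4% of its exon length within exons on the other strand. Of the citrate cycle and fatty acid oxidation list, 0 of 23 were up-regulated and 1 was down-regulated, and 3 had a higher mean in LP100 (median -0.13). The down-regulated member was *pparg*, which encodes no enzyme of either pathway, and edgeR did not call the other 22. *pparg* (ENSSSAG00000029040, chromosome 22, 63651030 to 63761712, minus strand), a nuclear receptor of fatty acids with roles in lipid storage and inflammation, was at 16.2 to 20.9 CPM in LP100 fish (median 18.7), against 19.8 to 26.6 CPM in CD fish (median 21.7). Every LP100 fish was below the CD mean and 6 were below every CD fish (log2 fold change -0.28, SE 0.07, edgeR adjusted p = 0.018). With counts summed per run its edgeR adjusted p was 0.0779. *cpt1ab*, for the gate of fatty acid entry into mitochondria, had a log2 fold change of -0.17, edgeR adjusted p = 0.128. Of 13 genes of cholesterol synthesis, edgeR and DESeq2 called 0 in either direction, and 2 were lower at an unadjusted p under 0.05 (median -0.23), with *lss* at 43.6 ± 13.7 CPM in LP100 fish and 61.8 ± 20.1 CPM in CD fish (SD, n = 9 each; edgeR adjusted p = 0.15).

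General functions of the cell had 0 or 1 called members. None of the 37 ribosomal protein genes (median -0.0026), 13 proteasome genes (median -0.07), 36 cell cycle genes (median -0.05) and 15 immediate early genes (median -0.22) was called in edgeR in either direction. At an unadjusted p under 0.05, 1 ribosomal, 1 proteasome and 1 immediate early gene were lower, and 1 cell cycle gene and 2 immediate early genes were higher. DESeq2 called 1 of these members, an immediate early gene that was lower. Of the lysosome and autophagy list, 1 of 30 (3.33%) was up-regulated, the tetraspanin *cd63* (log2 fold change 0.63, edgeR adjusted p = 0.0212). Of the endoplasmic reticulum and heat stress list it was 1 of 19 (5.26%), the small heat shock gene *hspb1* (1.36, edgeR adjusted p = 0.0467), which smooth muscle also expresses. Both shares lie below the 6.01% of all genes tested. The proliferation marker *mki67* had a log2 fold change of -0.05, edgeR adjusted p = 0.89. Of the adipocyte list, 0 of 5 were up-regulated and *pparg* was down-regulated, and of the erythrocyte list 0 of 3 were up-regulated and 1 was down-regulated, *tfr1a*, which all growing cells use (-0.48, edgeR adjusted p = 0.0176). Of the exon length of *cd63*, *hspb1* and *tfr1a*, 18.8%, 13% and 66.4% lies within exons on the other strand.

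To ask whether LP100 differed from the other additive diets, each was compared with LP100 directly, in a fit of the 18 fish of the pair. Against LP20, LP500 and MG edgeR called 0 genes each, with smallest adjusted p-values of 0.186, 0.169 and 0.156. At an unadjusted p under 0.05 there were 2239, 3217 and 1944 genes, of 29676, 29847 and 29653 tested. With no difference between the diets, about 1 in 20 of the genes tested would fall under it. DESeq2, an alternative chosen after the data were seen, called 5 genes up-regulated and 8 down-regulated in LP100 against LP20, 25 and 48 against LP500, and 4 and 10 against MG. The absence of calls in edgeR does not show that the diets acted alike.

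Side by side over the 45 fish, *col1a1a* averaged 58.3 ± 48.5 CPM in CD, 179.6 ± 107 in LP20, 228 ± 87.8 in LP100, 286 ± 171 in LP500 and 138 ± 112 in MG (SD, n = 9 each). Against LP20 its log2 fold change in LP100 was 0.35 (SE 0.39, edgeR adjusted p = 0.864), against LP500 -0.32 (SE 0.40, edgeR adjusted p = 0.82) and against MG 0.73 (SE 0.44, edgeR adjusted p = 0.742). For *acta2* the means were 338 ± 135 CPM in CD, 608 ± 306 in LP20, 699.8 ± 212 in LP100, 898 ± 680.0 in LP500 and 531 ± 362 in MG (SD, n = 9 each). For *vipb* they were 0.737 ± 0.416 CPM in CD, 2.35 ± 1.66 in LP20, 3.0 ± 1.40 in LP100, 3.87 ± 3.23 in LP500 and 2.27 ± 2.71 in MG (SD, n = 9 each). In these 3 genes the LP100 mean lay between those of LP20 and LP500, by less than the spread between fish of a diet. *c1qtnf1* had 0.302 ± 0.191 CPM in CD, 0.836 ± 0.566 in LP20, 1.30 ± 0.293 in LP100, 0.714 ± 0.501 in LP500 and 0.704 ± 0.636 in MG (SD, n = 9 each), so that its mean was higher in LP100 than in LP500, but the direct difference did not pass the test either (0.86 (SE 0.31, edgeR adjusted p = 0.333)). Among the down-regulated genes, *myo5b* averaged 88.5 ± 10.2 CPM in CD, 70.2 ± 13.3 in LP20, 64.0 ± 11.1 in LP100, 60.6 ± 18.1 in LP500 and 83.8 ± 23.0 in MG (SD, n = 9 each), and *ubp1* 33.6 ± 4.96 CPM in CD, 30.5 ± 4.54 in LP20, 23.9 ± 2.70 in LP100, 24.0 ± 6.14 in LP500 and 28.8 ± 5.24 in MG (SD, n = 9 each). The direct difference of *ubp1* between LP100 and LP20 was -0.35 (SE 0.09, edgeR adjusted p = 0.438).

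The number of DEGs depended on which fish were included. With each of the 18 fish left out in turn, 1321 to 2395 genes were up-regulated and 251 to 1019 down-regulated, the fewest without LP100 fish A062 and the most without A061. Without label run 1 of CD (A001 to A003) 184 genes were up-regulated and 42 down-regulated, and without label run 2 of LP100 (A037 to A039) 515 and 63.

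**Figure D5:**
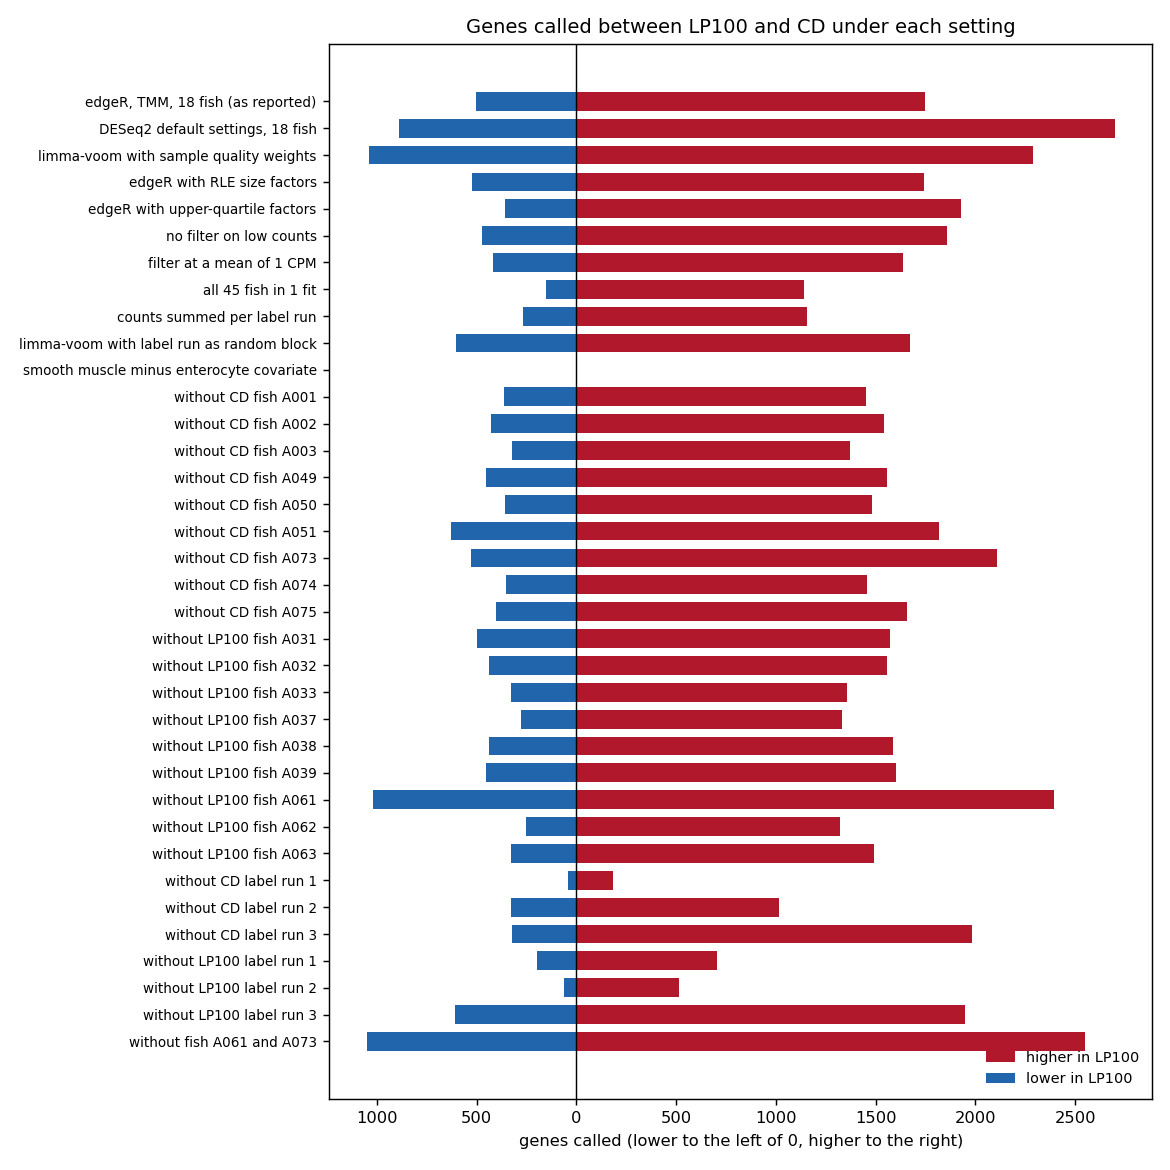
Number of genes called between LP100 and CD in each fit, with up-regulated genes as red bars to the right of 0 and down-regulated genes as blue bars to the left. Leaving out A061 gives 2395 up-regulated genes, leaving out label run 1 of CD gives 184, and the fit with the smooth muscle minus enterocyte covariate gives 0.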

How the data were processed

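RNA of the distal intestine was sequenced as read pairs by the authors, who ran nf-core rnaseq, used the Ssal_v3.1 assembly with fragments assigned to Ensembl genes by featureCounts (Subread v1.5.1, reverse-stranded setting in the file headers). The deposited values are raw counts for 69389 genes, 1 table per fish, with no normalization. The methods of the study and the labels name different extraction kits. Total counts of 11674716 to 22377591 per fish give a counting error of 29% to 21% for a gene at 1 CPM. Gene symbols were taken from RefSeq genes of the same assembly that share at least 0.5 of the joint span, which named 30322 genes, 8775 of them with a symbol that is no LOC number, while 4728 still matched after a shift of 100000 bp. The strand of a gene was not used in this match. Symbols of low overlap and genes on both strands of a locus are therefore uncertain. No 2 fish were duplicates (smallest chi-square per gene 7.46 over 153 pairs, where sampling noise gives about 1).

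Diets were compared by the quasi-likelihood test of edgeR (v4.0.16, in R v4.3.3) with TMM scaling, its filter on low expression (29086 genes kept), 18 fish, diet as the only factor, Benjamini-Hochberg adjusted p under 0.05. CPM are TMM-scaled, and each SE is the log2 fold change divided by the root of the F statistic. Alternatives were DESeq2 v1.42.0, limma v3.58.1, other scalings and filters, all 45 fish, label runs, a marker covariate and fish left out. The script was tested on simulated data. The 44 gene lists were written by hand and matched by symbol, a salmon copy marked a or b included, and no list was tested as a set. The comparison, the lists and the genes to name were chosen with earlier results of these data known. Named are the 10 genes of smallest adjusted p and the 5 of largest change (mean of at least 1 CPM in a diet) in each direction, the 3 members of smallest p in each list, the 3 of highest CPM in each cell type list and the genes the study names; any other gene was named after its values were seen. Sequences were not used here.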

Additional observations from a re-analysis of the deposited data

Results flagged for a closer look

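In 162 sets of 9 fish (a measure within a diet), 40 values stood apart from the other 8 fish by Dixon's test, which flags about 1 in 20 groups by chance. The sets are not independent of each other, since most rest on the same fish.

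LP100 fish A061 was far below the other 8 LP100 fish in 15 gene lists. Its mean log2 deviation was -1.37 for fibrillar collagens, -0.59 for network and other collagens, -0.88 for matrix glycoproteins and proteoglycans, -0.55 for collagen processing and -0.45 for matrix proteases and inhibitors. It was -0.48 for smooth muscle, -0.36 for smooth muscle contraction, -1.62 for fibroblast, -0.61 for mesenchyme regulators and receptors and -0.64 for hedgehog signalling. It was -1.07 for endothelium, -0.52 for enteric neuron, -1.04 for glia, -0.29 for mesothelium and -0.62 for granulocyte markers. Among single genes A061 stood apart with *frem1a* at 2.11 CPM, *hlx* at 3.13 CPM, *lamb2* at 1.02 CPM, *mmp14a* at 1.64 CPM, *acta2* at 259 CPM and *c7a* at 2.97 CPM.

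CD fish A073 was far above the other 8 CD fish in 2 lists, at 0.39 for endothelium and 0.33 for smooth muscle contraction. It also stood apart with *frem1a* at 3.81 CPM, *crld2* at 4.89 CPM, *osmr* at 6.73 CPM, *col1a1a* at 181 CPM, *col4a1* at 16.6 CPM, *lamb2* at 4.76 CPM, *mmp2* at 22.6 CPM, *mmp14a* at 6.61 CPM, *acta2* at 659 CPM, *itga8* at 1.97 CPM, *ptch1* at 2.60 CPM and *c7a* at 16.6 CPM.

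CD fish A003 had a total count of 22377591, where the next CD fish had 15554810. CD fish A050 was low for Notch signalling (-0.51) and high for immediate early genes (0.70). LP100 fish A037 was high for *plvapb*, at 28.9 CPM, and LP100 fish A062 for *cyp2x9*, at 24.3 CPM.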

How the results depend on the processing

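Between LP100 and CD, more genes were up-regulated than down-regulated in every alternative that called any gene. Scaling by RLE or upper quartile, other filters on low counts and a random block for label run in limma-voom kept both counts within 1.5 times 1749 and 505. The correlation within label runs that the block used was 0.0043, so the block could change little and is no test of dependence on runs. DESeq2 gave 2700 up-regulated and 889 down-regulated genes, sample quality weights 1040 down-regulated, the fit on all 45 fish 1142 and 150, and counts summed per label run 1155 and 268. Of the 1749 and 505 genes, the fit on summed counts called 923 and 200 again. With each fish left out in turn, the counts ran from 1321 to 2395 and from 251 to 1019. The count of down-regulated genes moved by over 1.5 times without LP100 fish A033 (327), A037 (277), A061 (1019), A062 (251) or A063 (328) and without CD fish A003 (324). Without label runs 1, 2 and 3 of CD there were 184 and 42, 1014 and 327, and 1985 and 321 genes, and without label runs 1 and 2 of LP100 703 and 196, and 515 and 63. Without fish A061 and A073, picked because they run against the difference, 1050 genes were down-regulated, and 1718 and 470 of the genes called with all fish were called again. With the smooth muscle minus enterocyte covariate, 0 and 0 genes were called, and the log2 fold changes of *hspb1* (-0.11), *tgm2* (-0.058), *smtna* (-0.012), which is part of the covariate, *stab1* (-0.013), *mgll* (-0.10) and *ackr3b* (-0.11) turned negative. The cause of these changes was not tested. Against LP20, LP500 and MG, DESeq2 called 5 and 8, 25 and 48, and 4 and 10 genes, where edgeR called 0. Of the 101 called genes that were followed singly, 101 kept their call in DESeq2, 64 in the fit on 45 fish and 20 without label run 1 of CD. Genes under 1 CPM rest on few counts. No paired analysis was possible because the fish of the diets carry different label numbers, and replicate numbers only follow accession order.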

Other observations

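Other genes outside the lists were singled out after their values were seen. Among receptors, *il31r* (ENSSSAG00000062925, chromosome 1, 164010131 to 164023076, plus strand), annotated as a receptor chain of interleukin 31, was at 2.70 to 5.30 CPM in LP100 fish (median 3.45), against 0.854 to 2.47 CPM in CD fish (median 1.68), and no LP100 fish overlapped with a CD fish (log2 fold change 1.18, SE 0.20, edgeR adjusted p = 0.00391). *glp2r* (ENSSSAG00000068655, chromosome 28, 12516645 to 12535913, minus strand) encodes the receptor of glucagon-like peptide 2, a gut hormone that promotes growth of the mucosa in mammals. It was at 9.38 to 24.5 CPM in LP100 fish (median 19), against 5.15 to 17.7 CPM in CD fish (median 6.68), with 7 LP100 fish above every CD fish (log2 fold change 1.18, SE 0.21, edgeR adjusted p = 0.00427). *nr1h4*, for the bile acid receptor FXR, was at 0.938 to 4.12 CPM in LP100 fish (median 2.97), against 0.761 to 2.86 CPM in CD fish (median 0.835) (log2 fold change 1.22, SE 0.29, edgeR adjusted p = 0.0133). The scavenging chemokine receptor *ackr3b* had a log2 fold change of 1.48, edgeR adjusted p = 0.0414.

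The terminal complement gene *c6.2*, which encodes a partner of C7 in the membrane attack complex, was at 2.89 to 44.6 CPM in LP100 fish (median 35.7), against 3.13 to 25.5 CPM in CD fish (median 7.04). Of the LP100 fish, 7 lay above every CD fish and 1 below every CD fish (log2 fold change 1.81, SE 0.41, edgeR adjusted p = 0.0101). The prostaglandin synthases *ptges* and *hpgds* had log2 fold changes of 1.12, edgeR adjusted p = 0.0216 and 0.88, edgeR adjusted p = 0.00957.

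Among down-regulated genes, *abhd11* and *cdc42ep4b* separated the diets without overlap. *abhd11*, for a mitochondrial hydrolase, was at 3.21 to 5.55 CPM in LP100 fish (median 4.92), against 5.72 to 7.39 CPM in CD fish (median 6.59) (log2 fold change -0.47, SE 0.10, edgeR adjusted p = 0.00771), and *cdc42ep4b*, for an effector of the GTPase Cdc42, at 9.68 to 11.5 CPM in LP100 fish (median 10.6), against 11.6 to 13.4 CPM in CD fish (median 12.3) (log2 fold change -0.20, SE 0.06, edgeR adjusted p = 0.0418). *myo6b*, for a myosin of endocytosis at the base of microvilli, was at 160.1 to 197 CPM in LP100 fish (median 178), against 171 to 231 CPM in CD fish (median 212) (log2 fold change -0.25, SE 0.06, edgeR adjusted p = 0.0136). The receptor tyrosine kinase *erbb2* had a log2 fold change of -0.47, edgeR adjusted p = 0.036. *lrpap1*, for the chaperone of megalin and related receptors, had -0.41, edgeR adjusted p = 0.0292, with 52.9% of its exon length within exons on the other strand.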
